A study of Mus musculus with 4 samples.

Results

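The 3 SoxF genes *Sox7*, *Sox17*, and *Sox18* and 7 other Sox genes (*Sox4*, *Sox11*, *Sox5*, *Sox6*, *Sox9*, *Sox10*, and *Sox2*) were described by the H3K27ac peaks around them in mouse LSECs. These 10 members were chosen by symbol, out of 21883 protein-coding genes in the gene table used. For each gene, peaks were taken from the gene body plus 50 kb on each side, and were divided into those within 1 kb of a gene end and those farther away (distal).

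Sox proteins are transcription factors that bind DNA through a shared HMG domain and are sorted into groups by sequence. The SoxF group acts in endothelial cells, where its members overlap in vascular development, arterial specification, and the formation of lymphatic vessels. H3K27ac, acetylation of lysine on histone H3, accompanies promoters and enhancers in use, so a peak marks a stretch of chromatin where the acetylated histone was enriched.

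The study profiled H3K27ac by ChIP-Seq in isolated LSECs, the fenestrated endothelial cells of the liver sinusoids, to find putative enhancers of *Col4a1* and *Col4a2*. The paper names a tagmentation-assisted form of ChIP-Seq, whereas the sample labels describe sonication and a ThruPLEX library kit. Which was used for these libraries is unknown. There were 2 H3K27ac libraries, replicates 2 and 3, and 2 input libraries, which were not analysed here. The cells were fixed with 1% formaldehyde, and there was 1 condition. In the study's methods, LSECs were purified with anti-CD146 beads and cultured briefly, from *Col4a1* fl/wt mice, from such mice that also carried *Cdh5* CreERT2 (an endothelial, tamoxifen-inducible Cre), and from *dCas9-KRAB Cdh5* CreERT2 mice, and both sexes were included. The sources used here do not tie a genotype, sex, age, or treatment to these libraries, nor say whether the replicates came from separate animals.

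The authors called peaks in each library separately, with 26975 peaks in replicate 2 and 64498 in replicate 3. The read depth of the libraries is unknown, since the peak lists carry no read counts. Nearly all of the shorter list (99.2%) and 37.7% of the longer one shared at least 1 bp with a peak in the other list. Fold enrichment, the authors' ratio of signal to background at a peak, had a median of 9.76 in replicate 2 and 8.89 in replicate 3. At regions with a peak of both libraries, called shared here, replicate 3 had the higher fold enrichment by a median factor of 2.47, so values were read within a library and not between libraries.

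The labelled cell type was set beside marker lists. Of 12 LSEC markers, 8 had a gene-end peak of both libraries (43.4% of all protein-coding genes had one), and all 12 had at least 1 shared distal region in their window (51.1% of all genes). No gene-end peak of both libraries was found at the 6 hepatocyte, 6 hepatic stellate cell, 6 Kupffer cell, or 6 cholangiocyte markers, the last of which include *Sox9*. Of 3 lymphocyte markers, only *Cd79a* had one. At least 1 shared distal region was nonetheless present for 4 of the 6 hepatocyte markers (median 0.886 per 100 kb, beside 0.396 over all genes), 2 Kupffer cell, 2 cholangiocyte, 1 hepatic stellate cell, and 2 lymphocyte markers. The median was 1.80 over the 3 lymphocyte markers and 4.09 over the LSEC markers. It was 0 over the Kupffer cell, cholangiocyte, and hepatic stellate cell markers. The part of other cells in the peaks was not tested.

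Within 1 kb of a gene end, peaks of both libraries that overlapped each other were present at 2 of 3 SoxF genes, *Sox7* and *Sox18*, and at 1 of 7 other members, *Sox4*. The same call was made for 43.4% of all protein-coding genes (9488 of 21883). In replicate 2 alone the counts were 2 of 3 and 1 of 7, beside 43.4% of all genes (9495), and in replicate 3 alone 3 of 3 and 3 of 7, beside 53.9% (11789). At least 1 shared distal region lay in the windows of 3 of 3 SoxF genes and 1 of 7 other members, beside 51.1% of all genes (11184). With counts this small and 2 libraries, these shares are descriptions of single genes.

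**Figure D1:**
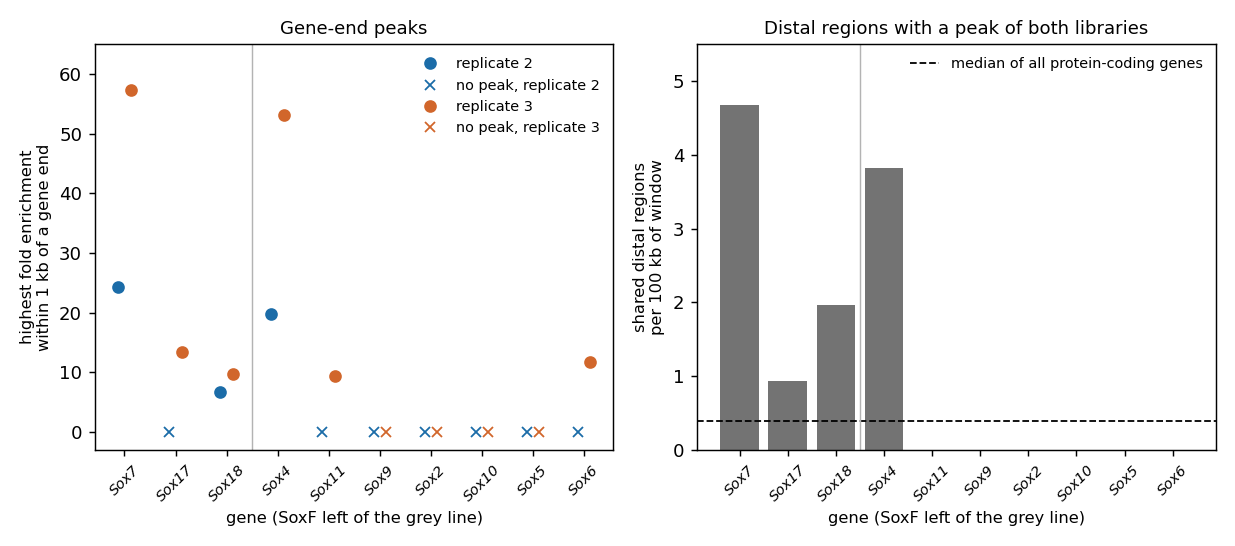
The left panel plots the highest fold enrichment (linear axis, ratio to background) of a peak within 1 kb of either gene end for each of the 10 genes, with replicate 2 in blue, replicate 3 in orange, and a cross at 0 where a library had no such peak. The right panel plots shared distal regions per 100 kb of window, with the median of all protein-coding genes (0.396) as a dashed line; *Sox7*, *Sox17*, *Sox18*, and *Sox4* lie above it and the other 6 genes at 0.

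*Sox7*, a SoxF gene active in endothelial and early blood lineages, had the strongest gene-end peaks of the 10 genes in both libraries. The gene lies at chr14:63943706-63950732 (mm10), and a shared region at chr14:63942197-63944211 covered its lower end. The fold enrichment there was 24.4 in replicate 2 (89.5th percentile of that list) and 57.3 in replicate 3 (93.4th percentile). Percentiles given this way are over all peaks of a list, distal ones included. Among genes with a gene-end peak alone, 74.0% in replicate 2 and 68.4% in replicate 3 had a lower value than *Sox7*. The summits of the stronger replicate 2 peak and of the replicate 3 peak were 22 bp apart. The median over all 26844 overlapping pairs was 34 bp, beside 37 bp over the 17 pairs in SoxF windows and 57 bp over the 10 pairs in the other windows. A second, weaker replicate 2 peak in the same region, with a fold enrichment of 6.10, had its near edge 828 bp from the gene end and its summit 1127 bp from that of replicate 3. At 2015 bp, the region was wider than 94.6% of the 8983 shared regions within 1 kb of a gene end.

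The window of *Sox7* held 9 peaks of replicate 2 and 20 of replicate 3, and 5 shared distal regions. This was 4.67 shared distal regions per 100 kb, a density above that of 97.4% of all protein-coding genes. The *Sox7* count was 1 with a reciprocal overlap of 50% and 2 with 20 kb on each side. It stayed at 5 with a 2.5 kb limit or with regions within 1 kb joined. Of the 5 regions, 3 lay within the gene body of *Pinx1*, the neighbouring gene for a telomerase inhibitor. At chr14:63899210-63900466, 43.2 kb from *Sox7*, the fold enrichment was 20.9 in replicate 2 and 58.5 in replicate 3, with summits 3 bp apart. At chr14:63902566-63904382, 39.3 kb away, 3 replicate 2 peaks with a highest value of 15.9 lay under 1 replicate 3 peak with a value of 29.6, their summits 4, 416, and 854 bp from its own. The third *Pinx1* region, chr14:63910187-63910852, was weaker, with 7.93 in replicate 2 and 22.1 in replicate 3.

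On the other side of *Sox7*, beyond its upper end, lay the other 2 shared distal regions. The nearer one, at chr14:63957452-63958087 and 6.72 kb from the gene, was enriched 8.11-fold in replicate 2 and 26.0-fold in replicate 3. The farther one, at chr14:63962548-63963191 and 11.8 kb away, reached 19.6 in replicate 2 and 65.5 in replicate 3, which was higher in replicate 3 than at the gene end itself. Another 14 distal regions around *Sox7* had a peak of replicate 3 alone, with fold enrichments of 3.95 to 15.0. Which gene a distal region acts on was not measured.

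*Sox17*, a SoxF gene of arterial endothelium and of the definitive endoderm, differed from *Sox7* in that its shared peaks lay inside the gene, 1 of the 2 regions at the edge of the 1 kb limit. The gene lies at chr1:4490928-4497426. A shared region at chr1:4491599-4492781 held a replicate 3 peak 671 bp from the lower gene end (13.4) and a replicate 2 peak whose near edge was 1082 bp from that end (7.46). It therefore did not count as a gene-end peak of both libraries, nor, with its merged extent within 1 kb, as distal. Its summits were 361 bp apart.

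The stronger shared region of *Sox17*, at chr1:4492999-4493842, lay within the gene body and 2.07 kb from the nearer end, and was its only shared distal region. Its fold enrichment was 14.0 in replicate 2 (68.3rd percentile) and 29.6 in replicate 3 (82.8th percentile), with summits 8 bp apart. Over the upper end of the gene, at chr1:4496030-4497734, a peak of 1705 bp was present in replicate 3 alone (11.7). Away from the gene body, the whole window held 1 peak, in replicate 3 alone, at chr1:4516623-4516868 (7.12). The density of shared distal regions was 0.939 per 100 kb, above that of 65.7% of all genes. This rests on 1 region: *Sox17* had 0 shared distal regions with a 2.5 kb limit or a reciprocal overlap of 50%, and in replicate 3 alone its density (1.88) was below the median over all genes (2.18).

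*Sox18*, the SoxF gene known for lymphatic vessel formation, had the weakest gene-end peaks among the 3 genes with a call in both libraries. The gene lies at chr2:181669837-181671640. At its upper end, a shared region at chr2:181671495-181671814 had a fold enrichment of 6.71 in replicate 2 (22.0th percentile) and 9.65 in replicate 3 (53.0th percentile). It was 320 bp wide, and only 1.31% of shared gene-end regions were narrower. Peaks of replicate 3 alone, with fold enrichments of 4.56 and 6.84, lay 826 bp outside the lower end and 410 bp inside it.

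The shared distal regions of *Sox18* were both stronger in replicate 3 than its gene-end region. In replicate 2 only the farther one was stronger (8.54, beside 6.71 at the gene end). At chr2:181676857-181677614, 5.22 kb from the gene, the fold enrichment was 6.10 in replicate 2 and 20.7 in replicate 3. At chr2:181678589-181679206, 6.95 kb from the gene, it was 8.54 and 34.5. This second region lay 1091 bp from an end of *Tcea2*, a transcription elongation factor gene, just outside the 1 kb limit. The density was 1.96 per 100 kb, above that of 83.2% of all genes. It depended on the settings: *Sox18* had 1 shared distal region with a 2.5 kb limit or with regions within 1 kb joined. It had 0 with a reciprocal overlap of 50%, and 5 when distal was counted from its own ends alone.

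The other shared regions of the *Sox18* window were at the ends of neighbouring genes. They lay at *Gm29797* (10.4 in replicate 2 and 40.4 in replicate 3), *Tcea2* (6.10 and 11.1), and *Rgs19* (10.2 and 26.7), a gene for a regulator of G protein signaling. In replicate 3, 5 of the 6 shared regions of the window were stronger than 9.65, the value at *Sox18* itself. So were both distal peaks of replicate 3 alone, with 15.3 at 1.66 kb and 15.6 at 3.81 kb from the gene, whereas a further peak of replicate 3 alone near the *Tcea2* end was weaker (8.47). In replicate 2, with 6.71 at *Sox18* itself, the order was mixed. The *Gm29797*, *Rgs19*, and farther distal (8.54) regions were stronger there, and the *Tcea2* and nearer distal (6.10) regions were weaker.

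**Figure D2:**
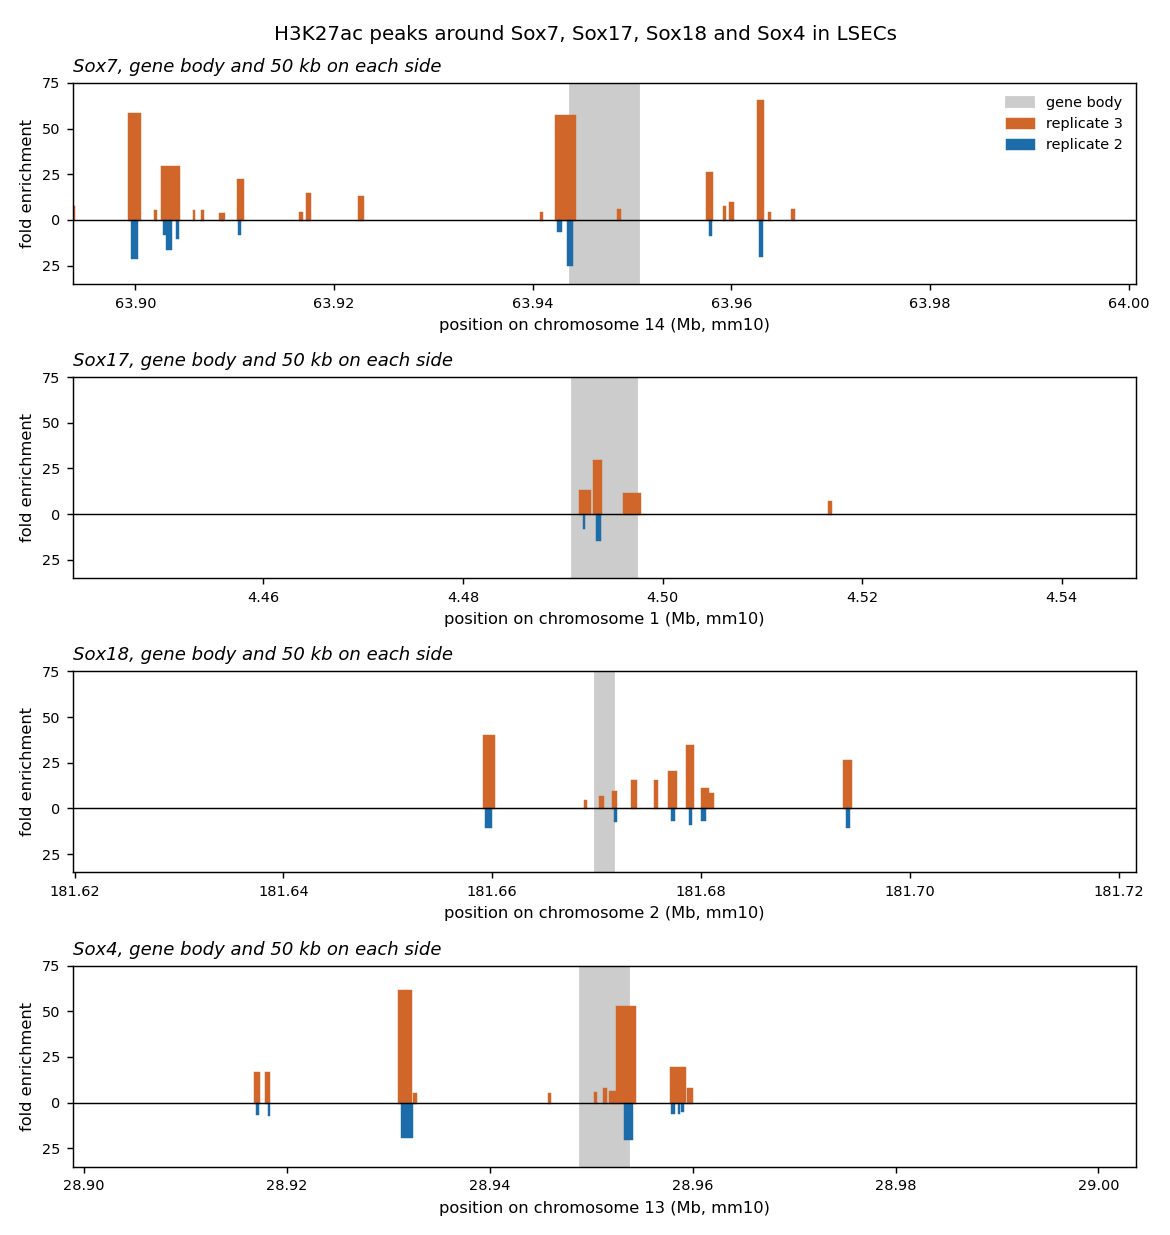
Each panel maps a gene body (grey) with 50 kb on each side, the horizontal axis in Mb of mm10, and draws each peak to scale (with a thin outline) with its fold enrichment (linear axis) upward for replicate 3 (orange) and downward for replicate 2 (blue). Replicate 2 peaks lie opposite replicate 3 peaks in all 4 windows; *Sox7* has shared peaks on both sides of the gene, whereas those of *Sox17* lie inside it.

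Among the other members, *Sox4* stood apart. *Sox4* and *Sox11* belong to the SoxC group, which is known for progenitor cells and developing nervous tissue, with *Sox4* expressed in many other tissues. *Sox4* lies at chr13:28948919-28953699, and a shared region at chr13:28952466-28954311 covered its upper end, which is its 5′ end in RefSeq. The fold enrichment was 19.7 in replicate 2 (83.0th percentile) and 53.1 in replicate 3 (92.4th percentile), with summits 5 bp apart. The region was 1846 bp wide, wider than 92.2% of shared gene-end regions.

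The *Sox4* window held 7 peaks of replicate 2, 11 of replicate 3, and 4 shared distal regions, or 3.82 per 100 kb (above 95.5% of all genes). The strongest, at chr13:28930989-28932299 and 16.6 kb from the gene, was enriched 19.0-fold in replicate 2 and 61.7-fold in replicate 3. At chr13:28957813-28959245, 4.11 kb from the 5′ end, 3 replicate 2 peaks of at most 5.62 lay under 1 replicate 3 peak of 19.4, with summits 54, 620, and 1001 bp from its own. The remaining regions, 31.6 kb and 30.7 kb away, had 6.08 and 6.78 in replicate 2 and 16.9 and 16.8 in replicate 3. The first of these was the only one of the 12 shared distal regions around members that lay within 1 kb of an end of a gene other than a protein-coding one, *Gm40858*. The *Sox4* count was 1 with a reciprocal overlap of 50%, 2 with 20 kb on each side, and 3 with regions within 1 kb joined. It stayed at 4 with a 2.5 kb limit.

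*Sox11*, also a SoxC gene, had a single peak in its whole window. It was present in replicate 3 alone, at chr12:27342622-27342938 over the 5′ end, with a fold enrichment of 9.44 (52.4th percentile). The nearest shared region was 438 kb from the gene body, farther than for 90.7% of all genes.

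The SoxD genes *Sox5* and *Sox6*, known for cartilage formation and, for *Sox6*, red blood cell maturation, are long genes and had no peak of replicate 2 in their windows. *Sox5* covers 954 kb, and its window of 1054 kb held 4 peaks of replicate 3, all distal and within the gene body, with fold enrichments of 3.91 to 7.16. *Sox6* covers 570 kb, and its window of 670 kb held 1 peak of replicate 3, at chr7:116040245-116040514 and 262 bp from the upper gene end (11.7, 60.3rd percentile). For *Sox6* the nearest shared region was 51.9 kb from the gene body, just beyond the 50 kb limit, and for *Sox5* it was 338 kb away.

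The SoxE gene *Sox9*, a marker of cholangiocytes in liver, had no peak of either library in its window of 106 kb. The nearest replicate 3 peak was 213 kb from the gene body and the nearest replicate 2 peak 893 kb. *Sox2*, a SoxB gene of pluripotent and neural cells, also had no peak in its window, and the nearest peaks of both libraries were 568 to 569 kb away. A position without a listed peak did not pass the authors' threshold, which at unknown depth leaves weaker acetylation unmeasured.

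*Sox10*, a SoxE gene of neural crest and Schwann cells, had no gene-end peak and no shared distal region, although its window was not empty. It held 3 peaks of replicate 2 and 8 of replicate 3. All 3 shared regions lay at the ends of other genes. A region at the shared ends of *Polr2f*, which encodes a subunit of RNA polymerases, and *1700088E04Rik* was enriched 9.49-fold in replicate 2 and 43.1-fold in replicate 3. The regions at *Micall1* had 7.46 and 8.81 in replicate 2 and 22.9 and 31.9 in replicate 3. The other 5 peaks were distal and present in replicate 3 alone.

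Ranked by gene-end fold enrichment, both libraries placed *Sox7* above *Sox4* and *Sox4* above *Sox18*. In replicate 2 the values were 24.4, 19.7, and 6.71, and in replicate 3 they were 57.3, 53.1, and 9.65. In replicate 3, *Sox17* (13.4) and *Sox6* (11.7) fell between *Sox4* and *Sox18*, and *Sox11* (9.44) came just below. Since *Sox17*, *Sox6*, and *Sox11* had no gene-end peak in replicate 2, their order has no replicate check. Over all genes with a gene-end peak the median was 16.3 in replicate 2 and 38.7 in replicate 3. Both *Sox7* and *Sox4* exceeded it in both libraries, whereas *Sox18* was below it in both. Among these genes, 62.6% in replicate 2 and 64.5% in replicate 3 had a lower value than *Sox4*. For *Sox18* the shares were 6.73% and 11.8%. In replicate 3 they were 17.6% for *Sox17*, 15.1% for *Sox6*, and 11.4% for *Sox11*. All these shares were lower than the percentiles over all peaks of a list.

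In total, 14 shared regions lay in the 3 SoxF windows (315 kb) and 8 in the 7 other windows (2255 kb). Shared distal regions numbered 8 and 4, and all 4 of the latter belonged to *Sox4*; the 6 other windows (2150 kb) held none. The median density was 1.96 shared distal regions per 100 kb over the SoxF genes and 0 over the others, beside 0.396 over all protein-coding genes, of which 48.9% had none. The SoxF median is the value of *Sox18*, and *Sox4* (3.82) was above it, so the groups overlapped. With a reciprocal overlap of 50% the SoxF median was 0, with 1 shared distal region left in the windows of each group, and in replicate 3 alone it was 3.93, beside 2.18 over all genes. The SoxF median was 0.982 with a 2.5 kb limit or with regions within 1 kb joined, and 4.25 with 20 kb on each side. Counted from each gene's own ends alone it was 4.67, beside 0.983 over all genes. The median over all genes was 0 with the 50% overlap, with 2.5 kb, and with 20 kb.

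The shared distal regions of the SoxF windows had median values of 11.3 for replicate 2 and 29.6 for replicate 3, beside 8.81 and 21.2 over all 15216 shared distal regions. Most of them, 5 of 8, were around *Sox7*. In replicate 2 the *Sox17* region had 14.0 and the 2 *Sox18* regions 6.10 and 8.54. In replicate 3 these had 29.6, 20.7, and 34.5. For the 4 *Sox4* regions the medians were 6.43 and 18.1. A peak of replicate 3 alone was found at 21 of 35 regions in SoxF windows and 17 of 25 in the others, beside 62.2% of all 64629 regions. No region around a member had a peak of replicate 2 alone, beside 0.350% of all regions. The regions of replicate 3 alone had median fold enrichments of 6.84 and 6.45, beside 6.20 for all 40204 such regions.

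Promoter sequences are shown for 3 members whose 5′ ends differed in peak cover: *Sox4* with both libraries, *Sox11* with replicate 3 alone, and *Sox2* with neither. RefSeq promoter windows (GRCm38.p6) matched 5 of the 10 members, *Sox4*, *Sox11*, *Sox2*, *Sox5*, and *Sox6*; *Sox7*, *Sox17*, *Sox18*, *Sox9*, and *Sox10* were not matched. Each sequence gives the 250 bases before the gene's first base, with each CCAAT and its reverse complement ATTGG in capitals, a pentamer found in many promoters. The windows are chr13:28953700-28953949 (minus strand), chr12:27342719-27342968 (minus strand), and chr3:34649745-34649994 (plus strand).
*Sox4*: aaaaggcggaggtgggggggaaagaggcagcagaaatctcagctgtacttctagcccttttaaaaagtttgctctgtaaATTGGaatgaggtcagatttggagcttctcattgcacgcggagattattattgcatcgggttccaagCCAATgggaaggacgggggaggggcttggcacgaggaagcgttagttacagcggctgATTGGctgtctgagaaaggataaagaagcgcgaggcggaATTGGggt
*Sox11*: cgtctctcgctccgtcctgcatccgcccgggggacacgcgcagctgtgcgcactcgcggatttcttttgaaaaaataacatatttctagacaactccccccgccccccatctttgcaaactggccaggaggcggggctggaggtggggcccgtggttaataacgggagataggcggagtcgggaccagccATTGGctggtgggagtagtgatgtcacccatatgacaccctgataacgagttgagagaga
*Sox2*: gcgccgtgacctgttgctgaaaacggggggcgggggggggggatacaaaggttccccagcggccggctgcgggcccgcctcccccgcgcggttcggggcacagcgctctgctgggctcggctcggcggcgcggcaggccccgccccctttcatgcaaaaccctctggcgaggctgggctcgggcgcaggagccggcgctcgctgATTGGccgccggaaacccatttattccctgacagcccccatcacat

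All 250 bases of the *Sox4* window lay under a peak in each library, 220 bases of the *Sox11* window under the replicate 3 peak, and none of the *Sox2* window under a peak. *Sox4* held 4 matches to CCAAT or ATTGG, and *Sox11* and *Sox2* held 1 each. A *Sox6* window that is not printed, without a base under a peak, held 3. At least 1 match was present in 33.8% of all 32851 promoter windows of this length, and 4 or more in 0.840%. CG dinucleotides numbered 11 in *Sox4*, 17 in *Sox11*, and 27 in *Sox2*, beside a median of 6 over all windows. The matched windows of *Sox5* (3) and *Sox6* (1 to 10 over 6 windows), none of them under a peak, held fewer CG dinucleotides than that of *Sox4*. A match is a run of letters and not evidence of binding.

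Among 8 genes described as partners of SoxF factors in endothelium, a gene-end peak of both libraries was present at 2, *Prox1* and *Ctnnb1*, beside 43.4% of all genes. *Prox1*, the lymphatic regulator that *Sox18* is known to induce, had 7.93 in replicate 2 and 20.2 in replicate 3. At least 1 shared distal region was present for 7 of 8, beside 51.1% of all genes, with *Prox1* the exception. *Ets1* had 19 (8.57 per 100 kb), *Erg*, an endothelial ETS factor, 15 (4.58), and *Mef2c* 10 (3.80), and none of these had a gene-end peak of both libraries.

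Of 14 endothelial genes described as SoxF targets, 11 had a gene-end peak of both libraries, beside 43.4% of all genes, and 13 had a shared distal region, beside 51.1%. *Kdr*, the main receptor of VEGF-A, had 22.4 in replicate 2 and 60.3 in replicate 3 at a gene end, and 12 shared distal regions (8.21 per 100 kb). *Cdh5*, the cadherin of endothelial junctions, had 16.3 and 36.1, and 9 shared distal regions (6.30 per 100 kb). The arterial ligand gene *Efnb2* had 20.3 and 48.9, and the tight junction gene *Cldn5* 8.68 and 64.4. *Dll4* and *Tek* had gene-end peaks of replicate 3 alone, and *Hey1* was without a shared distal region. *Nrp1* resembled *Sox17*: a shared region reached within 1 kb of its end, but no replicate 2 peak did. *Cdh5* and *Kdr* are also in the list of LSEC markers. The median density was 2.75 shared distal regions per 100 kb for the targets and 3.47 for the partners, beside 1.96 for the SoxF genes and 0.396 over all protein-coding genes.

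These values rest on annotated gene ends, so a promoter inside a gene counted as distal or within the body. The counts for SoxF gene ends depended on the limits used: with 2.5 kb in place of 1 kb all 3 SoxF genes had a gene-end peak of both libraries (47.3% of all genes), and when overlaps had to span 50% of each peak none had, as for *Sox4* (22.0% of all genes). With equal numbers of the strongest peaks in each library, *Sox7* was the only SoxF gene with one (42.4% of all genes).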

How the data were processed

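The authors made 1 narrow peak list per H3K27ac library. The submitters' processing notes name cutadapt 0.4.4, BWA 0.7.17, Picard 1.67, MACS2 2.0.10, bedtools 2.27.1, and mm10, without stating whether the inputs entered the calls. The deposited fold enrichment is a ratio of signal to background, the deposited p- and q-values are given as −log10, and the deposited score is a rescaled −log10 q. No read counts were given, so the depth and its precision are unknown. Peaks were merged across libraries where they overlapped by at least 1 bp. A gene-end peak of both libraries needed overlapping peaks that each lay within 1 kb of the same end of the gene. A shared distal region lay more than 1 kb from the ends of every protein-coding gene (GRCm38.p6, which gives neither strand nor exons) and overlapped the gene body or 50 kb on either side. Densities were divided by window length. No test was run, and lists are described by counts and medians beside all protein-coding genes. The counting was tested on simulated data.

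The named genes are the 10 members, 9 other mouse Sox genes, 8 SoxF partners, 14 SoxF targets, neighbours with an end within 1 kb of a shared region in a member's window, and the 2 genes most like each SoxF gene over 3 values; marker lists were used for the cell type. The genes most like *Sox17* and 1 marker list are not reported here. *Pinx1* and *Gm40858* were named after their values were seen. The members and lists were chosen with earlier results of these data known. Alternatives were a −log10 q of at least 5, the same number of strongest peaks, reciprocal overlap, other distances, joined regions, the 5′ end alone, and each library alone. Counting was done in Python 3.11.15 with pandas 2.3.3 and numpy 2.4.6, and plots were drawn with matplotlib 3.10.9. Promoter sequences came from RefSeq.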

Additional observations from a re-analysis of the deposited data

How the results depend on the processing

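No paired analysis was possible because there was 1 condition and the results come from no test. Under other settings, 36 values stayed within 1.5 times the main count, or within 1 SD of the libraries for medians, and 17 did not. Of the 36, 10 are the median density of the other members, which was 0 in every setting run and shows nothing of stability. That SD was 1.39 for the SoxF density, taken over only 2 values, the medians with each library alone (1.96 and 3.93). The 2 lists differ in length (26975 and 64498 peaks), so this SD does not measure spread between animals. The fall of the median from 1.96 to 0.982 with 2.5 kb from a gene end, and with regions within 1 kb joined, lay inside it. That says little of stability. The median over all genes, 0.396, was 0 in 5 settings (−log10 q of at least 5, equal numbers of peaks, reciprocal overlap, 2.5 kb, and 20 kb). With a reciprocal overlap of at least 50%, 0 SoxF genes and 0 other members had a gene-end peak of both libraries, shared distal regions fell to 1 in SoxF windows and 1 in the others, and the SoxF median density was 0; the same setting left 22.0% of all genes with such a gene-end peak. The cause was not tested. With the same number of strongest peaks (26975), 1 SoxF gene had a gene-end peak of both libraries, *Sox7*. With 20 kb on each side, the SoxF windows held 5 shared distal regions, the others 2, and the SoxF median density was 4.25 per 100 kb. At least 1 was then present for 36.1% of all genes. With 100 kb, the counts were 13 and 8, beside 64.4% of all genes with at least 1. The SoxF median density was then 1.45, beside 0.490 over all genes. Of the 8, 4 were around *Sox4*, 3 around *Sox6*, and 1 around *Sox10*. Counting distal from the member's own ends alone gave 7 regions in the other windows, 3 of them at *Sox10*, and a SoxF median density of 4.67, while the median over all genes rose to 0.983. With 1 library alone, SoxF gene-end counts ranged from 2 to 3, those of other members from 1 to 3, distal counts from 11 to 25 and from 6 to 19, and the median density from 1.96 to 3.93 and from 0 to 0, with the higher values from replicate 3. The median density over all genes was then 0.545 with replicate 2 and 2.18 with replicate 3, and *Sox17* (1.88) was below the latter. An alternative chosen after seeing the data, in which the merged region had to lie within 1 kb of the gene end, gave 3 SoxF genes, with *Sox17*, and 1 other member, beside 44.1% of all genes. The 5′ end alone gave 1 other member (*Sox4*) among the 5 with a RefSeq entry, without a share over all genes to set beside it. The RefSeq starts used for *Sox5* and *Sox6* lie inside those genes, not at the gene ends used elsewhere. For SoxF genes and distal regions the 5′ end alone was not run, since the entries used do not cover them.

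With 2 libraries of unknown depth and 1 condition, no spread across animals was available. A peak not listed in replicate 2 did not pass that list's threshold. Gene assignments rest on distance alone.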

Other observations

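Among 9 other mouse Sox genes, *Sox12*, a SoxC gene, was the one with a gene-end peak of both libraries (10.2 in replicate 2 and 49.2 in replicate 3), beside 43.4% of all protein-coding genes. At least 1 shared distal region was present for 3 of the 9, beside 51.1% of all genes. The window of *Sox12* held 5 shared distal regions (4.79 per 100 kb), close to the density of *Sox7* (4.67). *Sox13*, a SoxD gene, had a gene-end peak of replicate 3 alone (7.64) and 3 shared distal regions. *Sox8*, *Sox15*, and *Sox21* had gene-end peaks of replicate 3 alone, with fold enrichments of 12.8, 6.51, and 4.56. No gene-end peak of either library was listed at *Sox1*, *Sox3*, *Sox14*, or *Sox30*, and *Sox30* had 1 shared distal region.

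The protein-coding genes most like *Sox7* and *Sox18* were found by Euclidean distance over 3 values, the log2 of 1 plus the highest gene-end fold enrichment in each library and the log2 of 1 plus the number of shared distal regions. For *Sox7* they were *Exoc4* (distance 0.0461; 24.5 in replicate 2, 59.2 in replicate 3, and 5 shared distal regions) and *Heatr5a* (0.0631; 24.4, 59.9, and 5). For *Sox18* they were *Epp13* (0.0122) and *Slc16a12* (0.0549), each with 2 shared distal regions. All values come from 2 libraries, and a small distance says nothing of shared function.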
